A study of Mus musculus with 6 samples.

Results

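The genes described here are 10 genes of MHC class I antigen presentation and the immunoproteasome in sorted mouse lung tumour cells: H2-K1, H2-D1, B2m, Tap1, Tap2, Tapbp, Psmb8, Psmb9, Psmb10 and Nlrc5. They were chosen by name for their known role, with earlier results of these data known, and found by an exact match of the gene symbol. All 10 were among the 17842 genes with exonic values, and 7 were among the 13738 genes with intronic values. B2m, Psmb8 and Psmb10 were not analysed in introns. Polyadenylated RNA was sequenced from 6 libraries, each from a different animal, taken 16 weeks after tumour initiation. The sorted cells were live, negative for the leukocyte surface marker CD45 and positive for Epcam and GFP. All 6 animals carried an activated K-ras allele, loss of p53 (p53-/-) and Cas9 with GFP, and were labelled lung adenocarcinoma. The groups differ in the dRNA with which the animals were infected: 3 animals received Con dRNA (control libraries 1 to 3) and 3 received mA1 dRNA (mA1 libraries 1 to 3). The series title names overexpression of the long non-coding RNA Malat1 as the subject, so the comparison asks how class I genes stand in cells given the mA1 dRNA. The labels do not spell out dRNA, and strain, age and sex of the animals are not given in the sources used here. Malat1 itself was not analysed here. Each library is a bulk sample, in which fewer cells of a type and less RNA per cell cannot be told apart.

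MHC class I molecules show peptides from inside the cell to CD8+ T cells. The immunoproteasome cuts proteins into peptides, the TAP transporter carries these into the endoplasmic reticulum, and tapasin helps to load them onto a class I heavy chain bound to beta-2-microglobulin. Interferon gamma raises most of these genes through factors that include IRF1 and NLRC5, and tumour cells that lose them can escape recognition by T cells.

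Of these genes, 7 lie on chromosome 17 in the mouse MHC region, and B2m on chromosome 2 and Psmb10 and Nlrc5 on chromosome 8 lie elsewhere (coordinates in build GRCm38, GENCODE M21). H2-K1 spans 33996017 to 34000347 on the minus strand and H2-D1 spans 35262730 to 35267499 on the plus strand. The genes Psmb9 (34181987 to 34187764, minus strand), Tap1 (34187553 to 34197225), Psmb8 (34197721 to 34201454) and Tap2 (34203527 to 34216321) stand next to each other. Psmb9 and Tap1 are read in opposite directions, with 225 bases between their RefSeq start sites. Tapbp spans 33915899 to 33929292. B2m spans 122147686 to 122153083 on chromosome 2, Psmb10 spans 105935735 to 105938444 and Nlrc5 spans 94434356 to 94527272 on chromosome 8.

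RefSeq promoter sequences (GRCm38.p6) were at hand for 8 of the 10 genes, all but Tap2 and Nlrc5. They are the reference sequence and not that of these animals. The 250 bases before each start were searched on both strands for the NF-kB motifs GGGNNTTCC and the same with 1 more N in the gap, the interferon response motif GAANNGAAA, the X2 or CRE core TGACG and the Y box CCAAT. Of 27025 promoters, 4.88% hold GGGNNTTCC, 4.60% hold its longer form, 6.34% hold GAANNGAAA, 17.9% hold TGACG and 34.5% hold CCAAT. The sequences upstream of H2-K1 (chr17:34000348-34000597, minus strand) and B2m (chr2:122147437-122147686, plus strand) show the arrangement known for class I promoters, with matches in capitals.

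H2-K1: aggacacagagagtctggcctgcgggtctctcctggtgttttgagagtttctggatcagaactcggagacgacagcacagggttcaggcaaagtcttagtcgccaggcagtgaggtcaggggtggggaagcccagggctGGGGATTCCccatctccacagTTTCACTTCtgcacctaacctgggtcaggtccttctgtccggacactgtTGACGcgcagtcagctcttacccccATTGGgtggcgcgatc

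B2m: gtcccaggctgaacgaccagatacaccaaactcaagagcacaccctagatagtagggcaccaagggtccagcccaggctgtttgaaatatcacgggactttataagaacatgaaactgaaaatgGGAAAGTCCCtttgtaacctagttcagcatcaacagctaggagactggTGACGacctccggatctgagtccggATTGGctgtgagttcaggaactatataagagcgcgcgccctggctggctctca

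H2-K1 holds matches to GGGNNTTCC (starting 111 bases before the start), GAANNGAAA as its reverse complement (90), TGACG (41) and CCAAT as its reverse complement (16). H2-D1 holds the same series farther from its RefSeq start, at 171, 150, 101 and 76 bases, and a further CCAAT at 53. The stretch that runs from the NF-kB to the interferon motif is printed for both heavy chains to show how alike they are, with the motifs in capitals (H2-K1 at chr17:34000429-34000458, minus strand, and H2-D1 at chr17:35262923-35262952, plus strand).

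H2-K1: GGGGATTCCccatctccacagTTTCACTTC

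H2-D1: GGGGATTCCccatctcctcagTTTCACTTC

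These 30 bases differ by 1 substitution, A18T, counted from the first base shown, with the base of H2-K1 first. In the aligned part of the H2-K1 and H2-D1 windows, 161 of 177 positions (91.0%) are identical. This part is shorter than the whole windows. B2m holds the longer NF-kB form as its reverse complement (126 bases before the start), TGACG (78) and the reverse complement of CCAAT (53), and no match to GAANNGAAA. Its printed sequence does hold gaaactgaaa, a form with 1 more base in the gap, which was not searched for in any promoter. Tap1 and Psmb9 each hold TGACG or its reverse complement and a Y box, Tapbp holds only Y boxes, and Psmb8 and Psmb10 hold none of these letters in this window. All 250 bases of the windows of H2-D1, Tap1, Tapbp, Psmb8 and Psmb9 lie in annotated exons, as do 52 bases of that of Psmb10. Distances and missing matches there depend on the start site chosen. The matches describe sequence and do not show that a factor was bound.

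Depth was similar in all libraries, at 71093708 to 85248140 exonic and 7200660 to 11422283 intronic reads. Control library 1 stands apart. The surfactant gene Sftpc took 0.679% of its exonic reads against 7.21% to 12.2% in the other 5 libraries, and all 10 alveolar type 2 marker genes measured were lowest in it. The epithelial marker Epcam was abundant in all 6, at 39137 to 81074 normalised counts, a normalised count being a read count divided by the size factor of its library. Ptprc, which encodes CD45, stood at 80.8 to 265 normalised counts. Exonic fold changes of the 10 genes are given with and without control library 1 or mA1 library 2, the library in which most of the 10 were highest. Other results are given so only in part.

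No class I or immunoproteasome gene differed between mA1 and control libraries beyond the spread between animals. In exons 9 of the 10 had a log2 fold change above 0, mA1 over control, from group means of log2(value + 10). On that scale the widest differences were in Psmb8 (2.37-fold), Psmb9 (2.12-fold), Tap1 (1.86-fold) and Tap2 (1.57-fold). They were narrow in H2-D1, B2m and Tapbp (1.08-fold to 1.09-fold). Of these, ratios of plain means were smaller for Psmb8 (1.97), Psmb9 (1.80), Tap1, Tap2 and Tapbp and larger for H2-D1 and B2m. Nlrc5, the gene below 0, also had a higher plain mean of normalised counts in mA1 cells. All 10 passed the filter on low values, and 0 passed an adjusted p of 0.05 in limma, against 0.00602% of the 16606 genes tested. At an unadjusted p under 0.05 the count was also 0 of 10, against 12.6% of all genes. The edgeR quasi-likelihood test called 0 of 10 as well (0% of all genes, and 10.5% at an unadjusted p, where 0 of the 10 passed). DESeq2 called 0 of 10 against 2.79% of all genes, and the authors' deposited table also has 0 of 10, against 2.91%. A log2 fold change above 0 was found for 53.8% of all genes. The median log2 fold change was 0.30 over the 10 genes and 0.0390 over all genes tested.

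**Figure D1:**
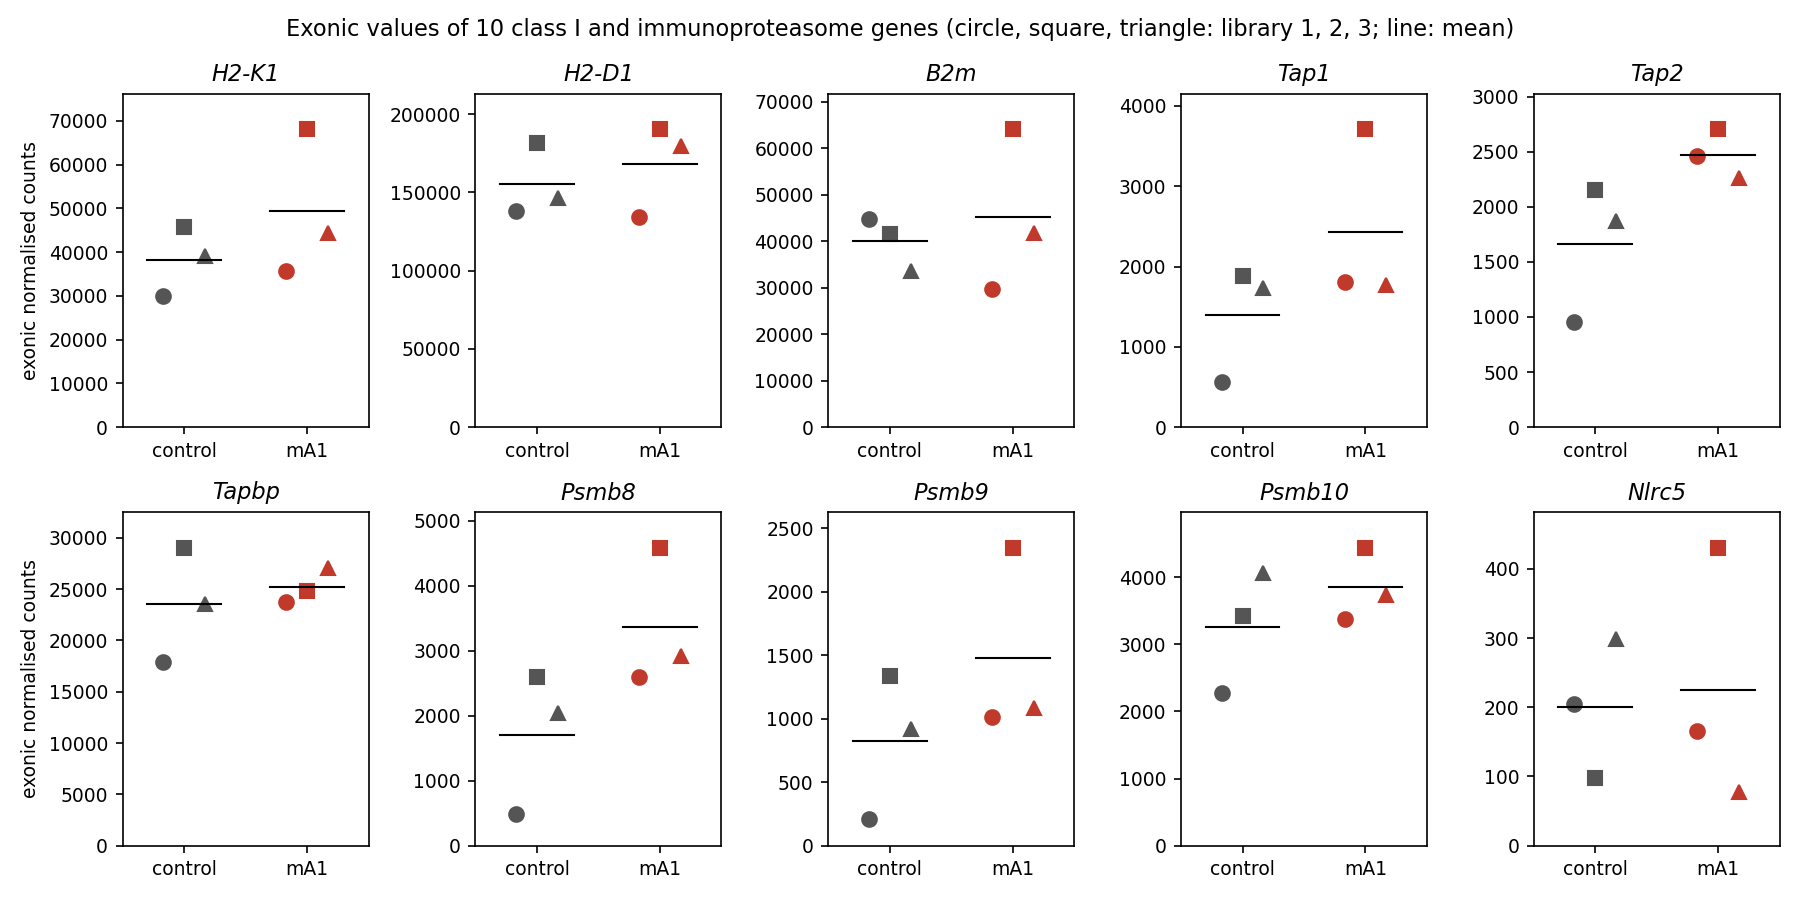
Exonic normalised counts (vertical axis from 0) of the 10 genes in the 3 control (grey) and 3 mA1 (red) libraries, 1 panel a gene, with a line at each group mean; circle, square and triangle are libraries 1, 2 and 3. The red square of mA1 library 2 is the highest point in 9 of 10 panels, and the grey circle of control library 1 is the lowest in 7.

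The heavy chains present the peptide. H2-K1 stood at 29951, 45791 and 39071 normalised counts in control libraries 1 to 3 and at 35699.6, 68098.5 and 44288 in the mA1 libraries 1 to 3. The groups overlapped, with the lowest value in control library 1 and the highest in mA1 library 2. The means were 38271 ± 7950.1 (SD, n = 3) and 49362 ± 16785 (SD, n = 3), a log2 fold change of 0.34 (SE 0.27, 95% interval −0.30 to 0.97, adjusted p = 0.630). It was 0.17 with control library 1 left out and 0.0768 with mA1 library 2 left out. Here and below, fold changes are differences of mean log2(value + 10), mA1 minus control, from limma with Benjamini-Hochberg adjustment over all genes. H2-D1 was the most abundant of the 10, at 138385, 181861 and 146304 in control and 134411, 190346 and 179641 in the mA1 libraries. Its groups overlapped almost fully, and its log2 fold change was 0.11 (SE 0.20, 95% interval −0.37 to 0.58, adjusted p = 0.851), and it was 0.0276 and 0.00906 without control library 1 or mA1 library 2. H2-K1 and H2-D1 belong to a family with near-identical copies, so reads can be split between them and these values are uncertain in that respect.

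B2m, the light chain that all class I molecules need, had 44804, 41499 and 33576 normalised counts in the controls and 29641, 64069.7 and 41853 in the mA1 libraries. Both the lowest and the highest value were in mA1 cells, and control library 1 was the highest control, which held for none of the other 9 genes. The log2 fold change was 0.12 (SE 0.28, 95% interval −0.54 to 0.78, adjusted p = 0.886). It was 0.20 with control library 1 left out and −0.17 with mA1 library 2 left out.

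Tap1 and Tap2 form the peptide transporter. Tap1 stood at 560.2, 1881 and 1734 in control and 1809, 3709 and 1768 in the mA1 libraries, so that control library 1 was at 31.0% of the mean of the other controls and mA1 library 2 stood above all the rest. The log2 fold change was 0.89 (SE 0.52, 95% interval −0.33 to 2.11, adjusted p = 0.514), and it was 0.34 with control library 1 left out and 0.54 with mA1 library 2 left out. Tap2 was at 954, 2157 and 1871 in control and 2458, 2704 and 2259 in the mA1 libraries. It was the only 1 of the 10 whose groups did not overlap, which held for 19.2% of all genes tested (9.25% with mA1 higher). The log2 fold change of Tap2 was 0.65 (SE 0.31, 95% interval −0.0804 to 1.38, adjusted p = 0.442), and it was 0.30 with control library 1 left out and 0.58 with mA1 library 2 left out. Tapbp encodes tapasin, which bridges the transporter and the heavy chain. Its values were 17903, 29023 and 23566 in control and 23743, 24828 and 27032 in the mA1 libraries, with the highest in control library 2, and the log2 fold change was 0.13 (SE 0.19, 95% interval −0.31 to 0.57, adjusted p = 0.807). Without control library 1 it was −0.0556 and without mA1 library 2 it was 0.14. Reads came from a kit that does not mark strand, so those of overlapping genes cannot be told apart. Tap1 overlaps Psmb9 on the other strand by 212 bases, Tap2 overlaps Gm15821, which had at most 16.2 normalised counts, and Tapbp overlaps Zbtb22 on its own strand, which had 636 to 789. Genes on the other strand that have no exonic values here also overlap members. These are Patl2 for B2m (5398 bases), Gm20496 for Tap2 (1923), Gm19412 for Tapbp (1207) and 9330175E14Rik for Nlrc5 (748).

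Psmb8, Psmb9 and Psmb10 encode the interferon-inducible catalytic subunits that replace Psmb5, Psmb6 and Psmb7 in the proteasome. Psmb8 had 482 normalised counts in control library 1, 2597 and 2034 in the other controls and 2588, 4582 and 2916 in the mA1 libraries. Control library 1 was at 20.8% of the mean of the other controls, and mA1 library 1 lay just under control library 2, so the groups overlapped. The log2 fold change was 1.24 (SE 0.61, 95% interval −0.20 to 2.68, adjusted p = 0.453), and it was 0.50 with control library 1 left out and 1.00 with mA1 library 2 left out. Psmb9 was also lowest in control library 1 and highest in mA1 library 2, at 210.4, 1337 and 922 in control and 1015, 2346 and 1084 in the mA1 libraries, with control library 1 at 18.6% of the mean of the other controls. Its log2 fold change was 1.08 (SE 0.69, 95% interval −0.54 to 2.71, adjusted p = 0.548) and was 0.30 with control library 1 left out and 0.70 with mA1 library 2 left out. Psmb10 varied less, at 2271, 3421 and 4061 in control and 3369, 4438 and 3733 in the mA1 libraries, with a log2 fold change of 0.27 (SE 0.24, 95% interval −0.29 to 0.83, adjusted p = 0.660). Without control library 1 it was 0.0361 and without mA1 library 2 it was 0.17. Psmb8 and Psmb10 lie across antisense genes that were not analysed here.

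Nlrc5 encodes the transactivator of class I genes. It had the lowest level of the 10, at 205, 98.0 and 298 normalised counts in the controls and 166, 430.5 and 77.9 in the mA1 libraries. Both extremes were in mA1 cells, and control library 1 (103% of the mean of the other controls) was not low. The log2 fold change was −0.0235 (SE 0.69, 95% interval −1.65 to 1.60, adjusted p = 0.991). Its sign differs between methods: the estimate was 0.17 with edgeR and with DESeq2, 0.0542 without control library 1 and −0.63 without mA1 library 2.

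Levels of different genes were compared per kilobase of merged exons. Merged exons take in all annotated transcripts of a gene, so these levels depend on the annotation. The mean over the 6 libraries was 62747 normalised counts per kilobase for H2-D1, 49504 for B2m, 14914 for H2-K1, 6711.5 for Tapbp and 2081 for Psmb10. Psmb8 (749), Tap2 (547), Tap1 (349) and Psmb9 (315) followed, and Nlrc5 was last at 25.0. The libraries of H2-D1 (52117 to 73806) and B2m (34466 to 74499.7) overlapped in range, although within a library B2m was at 0.661 to 0.971 times the level of H2-D1 in 5 of 6 and at 1.01 times in mA1 library 2. H2-K1 (10194 to 23178.5), Tapbp (4935 to 7999.8) and Psmb10 (1332 to 2603) kept apart from each other and from B2m. Psmb8 (143 to 1355), Tap2 (252 to 715), Tap1 (102 to 677) and Psmb9 (57.5 to 641) overlapped with their neighbours, the upper end of Psmb8 reached into the range of Psmb10, and Nlrc5 (9.17 to 50.7) lay below them all. H2-D1 exceeded H2-K1 per kilobase by 3.18 to 5.26 times, with the smallest ratio in mA1 library 2 and the largest in control library 1. Tapbp exceeded Tap1 by 48.2 times in control library 1, by 10.1 times in mA1 library 2 and by 19.8 to 23.3 times in the other 4 libraries.

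The 10 genes differed in how far their libraries spread. The ratio of the highest to the lowest library was 11.2 for Psmb9, 9.50 for Psmb8, 6.62 for Tap1, 5.53 for Nlrc5 and 2.83 for Tap2. It was 2.27 for H2-K1, 2.16 for B2m, 1.95 for Psmb10, 1.62 for Tapbp and 1.42 for H2-D1. Among the 6746 genes with a mean of 1000 to 10000 the median ratio was 1.65 and the 90th percentile 3.58, and Psmb9 (97.3% of these genes had a smaller ratio), Psmb8 (96.8%) and Tap1 (95.1%) lay above that. H2-D1 was below the median of the 1375 genes with a mean of 10000 or more (1.48), and Nlrc5 was above the median of 2.85 of the 4134 genes with a mean of 100 to 1000.

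Control library 1 was the lowest library for 7 of the 10 genes, against 26.5% of all genes, and mA1 library 2 was the highest for 9, against 22% of all genes. Both held for 6 genes, H2-K1, Tap1, Tap2, Psmb8, Psmb9 and Psmb10, against 9.76% of all genes. On the log2(value + 10) scale centred on each gene, Psmb8 and Psmb9 were at −2.11 in control library 1, Tap1 at −1.56 and Tap2 at −1.04, whereas H2-D1 was at −0.21 and B2m at 0.12. In mA1 library 2, Psmb9 was at 1.31, Nlrc5 at 1.21, Tap1 at 1.15, Psmb8 at 1.11 and H2-K1 at 0.69, whereas Tapbp was at 0.0439. Without control library 1 the median log2 fold change over the 10 genes was 0.19, and without mA1 library 2 it was 0.15. With both left out it was −0.0707, and 8 of the 10 genes were then below 0, Tap2 (0.23) and Psmb8 (0.26) being the other ones.

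**Figure D2:**
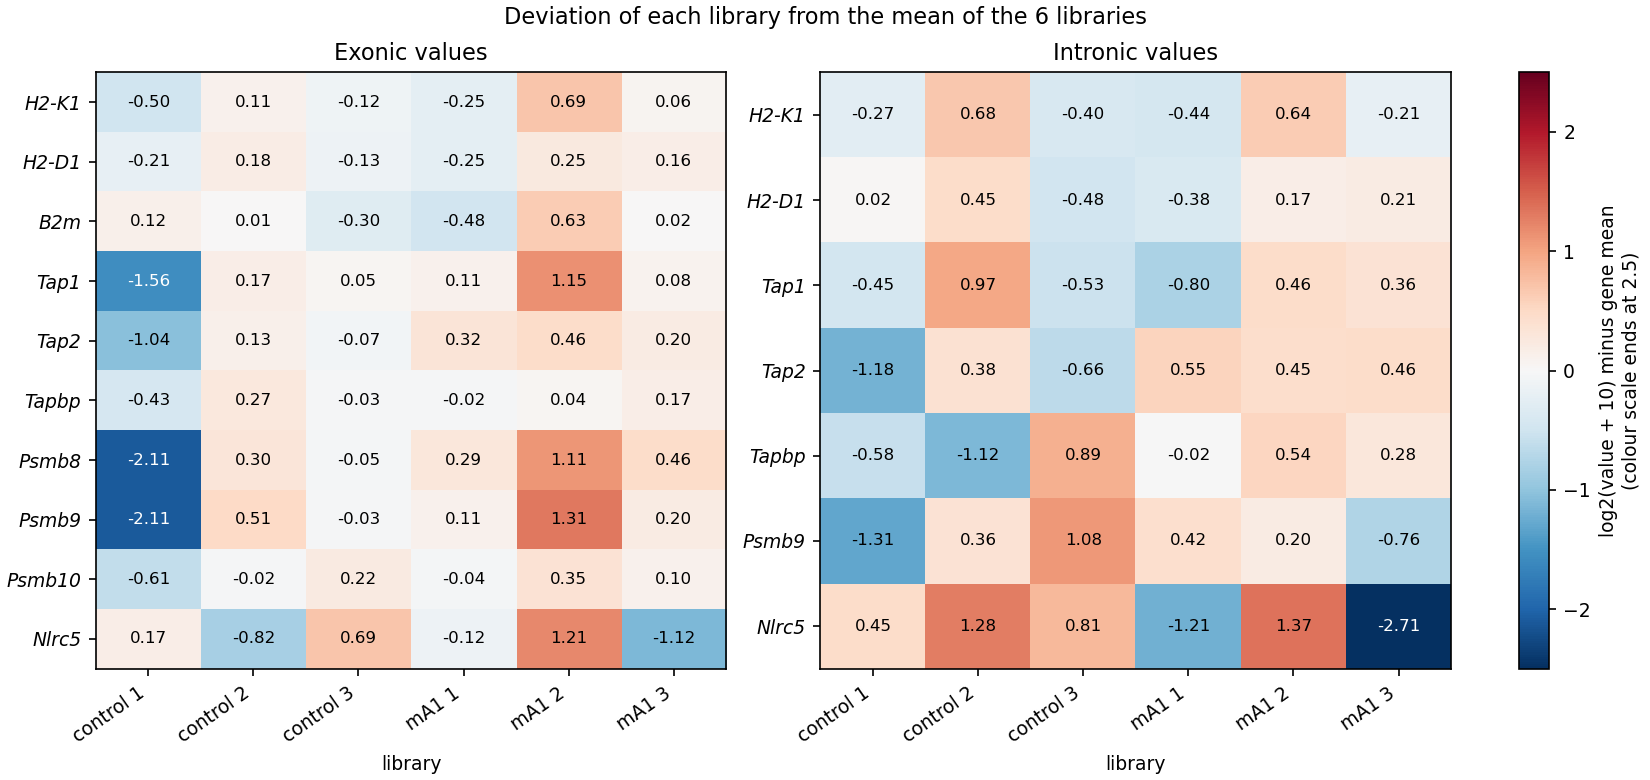
Deviation of each library from the mean of its gene over the 6 libraries, on log2(value + 10), for the 10 genes in exons (left) and the 7 measured in introns (right); blue is lower and red higher. In exons control library 1 is blue for Tap1, Tap2, Psmb8 and Psmb9 (−1.04 to −2.11) and mA1 library 2 is the reddest column. In introns mA1 library 2 is above the mean in all 7 rows (0.17 to 1.37) but is the highest library in 1 of them. The share of all genes above the mean in that library is not given here.

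**Figure D3:**
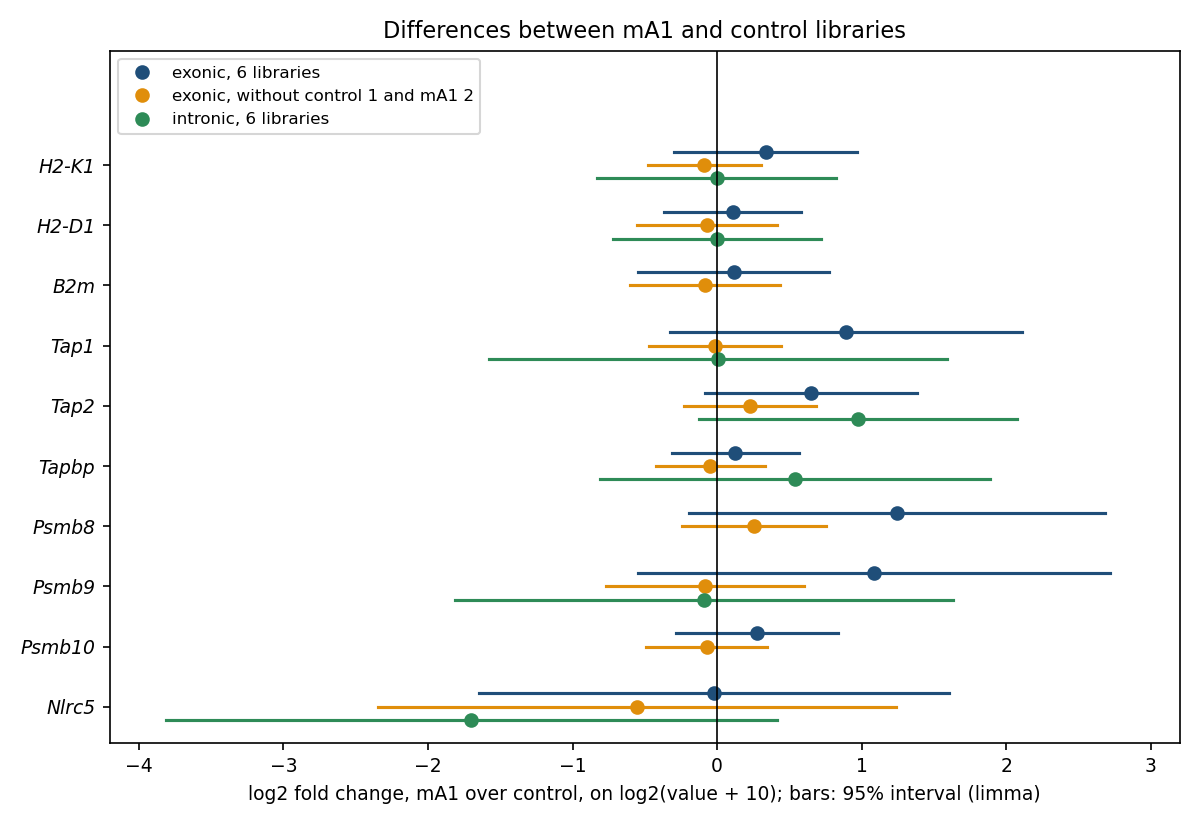
Log2 fold change of mA1 over control for each gene (horizontal axis, on log2(value + 10)), with 95% intervals from limma: exonic in all 6 libraries (blue), exonic without control library 1 and mA1 library 2 (orange), and intronic in all 6 (green, 7 genes). Every interval crosses 0, and the orange points of Tap1 (−0.0137) and Psmb9 (−0.0817) lie near 0 where the blue ones are at 0.89 and 1.08.

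Intronic reads come mostly from RNA that has not been spliced, and they gave another readout of the same animals. None of the 7 genes measured passed an adjusted p of 0.05 in limma (0 of 12791 genes did, 0%), and 0 of the 7 had an unadjusted p under 0.05, against 10.5% of all genes. By edgeR 0 of the 7 passed (0% of all genes, 8.05% unadjusted), by DESeq2 0 (0.997% of all genes), and 0 were called in the authors' deposited table (1.05%). Tap2 was again the only 1 of them whose groups did not overlap (16.8% of all genes), at 73.6, 238 and 110.4 normalised counts in the controls and 269, 249 and 252 in the mA1 libraries. Its intronic log2 fold change was 0.97 (SE 0.49, 95% interval −0.13 to 2.08, adjusted p = 0.529). It was 0.63 with control library 1 left out and 0.99 with mA1 library 2 left out. The span of Tap2 overlaps those of Gm15821 and Gm20496, and the library kit does not mark strand.

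H2-K1 stood at 1092, 2121 and 997 in introns of control and 970.3, 2067 and 1143 of mA1 libraries, and H2-D1 at 711, 960.3 and 499 and at 534, 789.6 and 810.3. Their fold changes were close to 0 (−0.00356 and 0.00041 on the log2 scale, SE 0.37 and 0.32). In H2-K1 the highest intronic value was in control library 2 and not in mA1 library 2. In introns control library 1 was the lowest for 2 of the 7 genes (23.7% of all genes) and mA1 library 2 the highest for 1 (18.4%). Values of mA1 library 2 lay above the mean of the 6 libraries in all 7, a count whose share over all genes is not given here. Tapbp had 50.4 to 232 in control and 119 to 181 in mA1 introns, with a log2 fold change of 0.54 (SE 0.60). Tap1 rested on 6 to 31 intronic reads a library and Psmb9 on 3 to 60, and no difference was detectable at this depth (log2 fold changes 0.00782 with SE 0.71, and −0.0892 with SE 0.77). Nlrc5 was at 88.2, 164 and 116 in control introns and at 21.1, 175 and 0.987 in mA1 introns, the last from 1 read. Its log2 fold change was −1.70 (SE 0.94, 95% interval −3.81 to 0.41, adjusted p = 0.561). The size depends on the setting: it was −0.77 without mA1 library 3 and −2.81 without mA1 library 2, −2.60 and −0.86 with pseudocounts of 1 and 50, and −0.91 by edgeR and by DESeq2.

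The difference between the exonic and the intronic change was tested in the 11656 genes measured in both. Nlrc5 had a gap of 1.68 on the log2 scale (SE 0.67, 95% interval 0.0975 to 3.25), with an unadjusted p of 0.0403 and an adjusted p of 0.680. With pseudocounts of 1 and 50 the gap was 2.57 and 0.87, with unadjusted p of 0.0609 and 0.0759 in limma. It was the only 1 of 7 with an unadjusted p under 0.05, against 7.28% of all genes, and 0 of 7 passed after adjustment (0% of all genes). Psmb9 (1.17, SE 0.52), Tap1 (0.88, SE 0.56), H2-K1 (0.34, SE 0.35) and H2-D1 (0.11, SE 0.37) had larger exonic changes, and Tap2 (−0.32, SE 0.33) and Tapbp (−0.41, SE 0.61) larger intronic ones, none beyond the spread. The gap of Tap1 was 0.55 with control library 1 left out and 0.76 with mA1 library 2 left out.

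The balance of inducible against constitutive catalytic subunits was read as the ratio of values per kilobase of exon. Psmb8 over Psmb5 was 0.0157, 0.0691 and 0.0586 in control and 0.0697, 0.104 and 0.0815 in the mA1 libraries, so every mA1 library lay above every control, the nearest by little, with a difference of 1.07 on the log2 scale between the group means. The exact two-sided permutation test gave p = 0.1, which is the smallest that 3 against 3 libraries allow, and 0.3 adjusted over the 3 ratios. Without control library 1 the difference was 0.40. Psmb9 over Psmb6 was 0.00729, 0.0370 and 0.0254 in control and 0.0290, 0.0468 and 0.0315 in the mA1 libraries (log2 difference 0.88, exact permutation p = 0.4, adjusted 0.6), and without control library 1 the difference was 0.19. Psmb10 over Psmb7 was of another order, 0.981, 1.67 and 2.00 against 1.58, 1.54 and 1.66 (log2 difference 0.10, exact permutation p = 1.0). Per kilobase, Psmb10 was close to or above the level of Psmb7 in every library, while Psmb8 and Psmb9 were far below Psmb5 and Psmb6. The order of Psmb10 and Psmb7 rests on the length of merged exons, 1.705 kilobases for Psmb10 and 3.421 for Psmb7. In normalised counts, without division by length, Psmb10 was below Psmb7 in every library. The constitutive subunits themselves varied less: Psmb5 stood at 8149 to 11689 normalised counts over the 6 libraries, Psmb6 at 14763 to 25647 and Psmb7 at 4072 to 5784, each with its highest value in mA1 library 2.

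**Figure D4:**
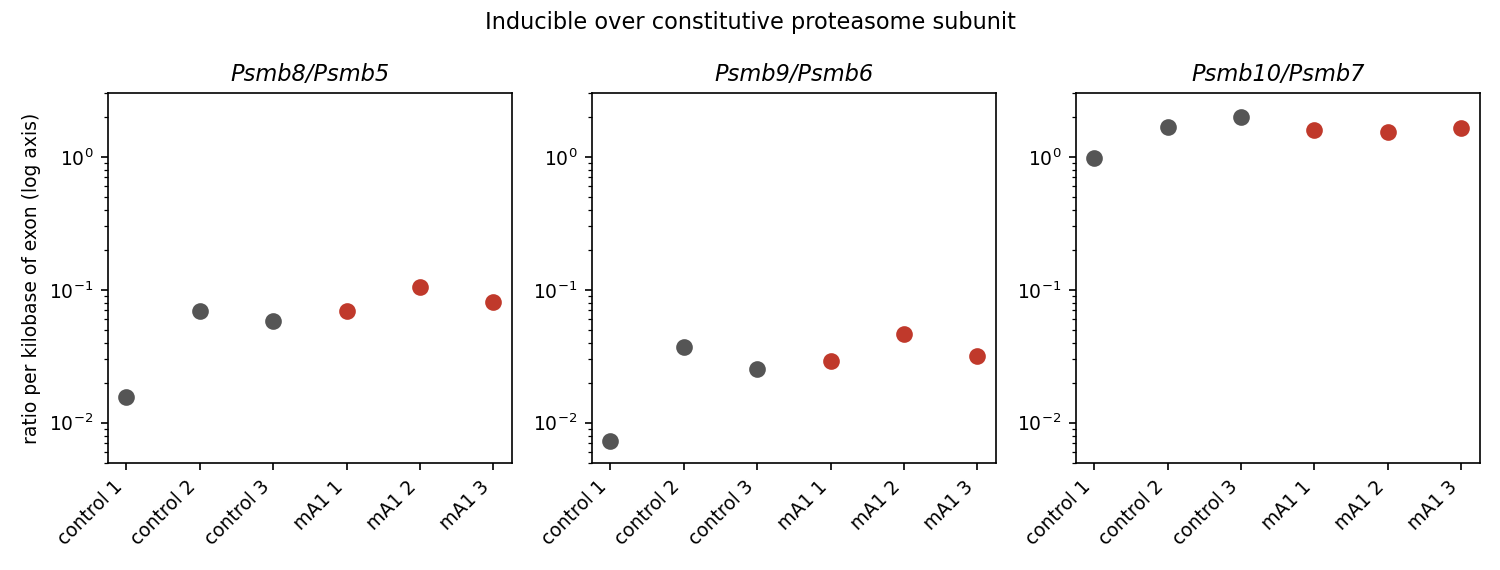
Ratio per kilobase of exon of each inducible proteasome subunit to the constitutive subunit it replaces (vertical axis, log scale) in each control (grey) and mA1 (red) library. Control library 1 is the lowest point in all 3 panels (0.0157, 0.00729 and 0.981), and in the first panel the 3 red points (0.0697 to 0.104) lie above the grey ones.

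The wider pathway was followed in lists of related genes chosen for their known function, with earlier results of these data known. Over 13 lists with 148 different genes tested, limma and edgeR called 0 (0.00602% and 0% of all genes). In limma 16 had an unadjusted p under 0.05 (10.8%, against 12.6% of all genes). DESeq2 and the authors' deposited table called 3 each (2.03%, against 2.79% and 2.91% of all genes). Of 15 non-classical and other class I genes, 13 had a log2 fold change above 0 and 2 below, with a median of 0.35 (0.11 without control library 1 and 0.16 without mA1 library 2), and 10 were lowest in control library 1. H2-Q2 ranged from 550.3 in control library 1 to 1637 in control library 2, and H2-T22 from 1989.7 in control library 1 to 3085 in mA1 library 2. H2-T23, which encodes the NKG2A ligand Qa-1, went the other way, at 6358, 5672 and 7023 in control and 4088, 4138 and 5047 in the mA1 libraries. Its log2 fold change was −0.52 (SE 0.15, adjusted p = 0.279). The groups did not overlap for 3 of the 15 (19.2% of all genes): H2-T23 and, with mA1 higher, H2-Q1 and H2-T24, which are named after their values were seen. H2-Q1 was at 1.98, 6.76 and 10.8 in control and 20.9, 62.7 and 85.9 in the mA1 libraries (log2 fold change 1.90, SE 0.56, adjusted p = 0.284), and H2-T24 was at 251 to 345 and 355 to 581.

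Of 11 genes of peptide loading and trimming, 10 were above 0 and 1 below, with a median of 0.13, and none was highest in mA1 library 2. The most abundant were the chaperone Hspa5 (154651 to 213883), the loading complex member Pdia3 (114308 to 145104) and calnexin, Canx (55398 to 75543), each with its highest value in mA1 library 3. Of the 14 constitutive core proteasome genes, 13 were above 0 (median 0.18, and 0.0532 without mA1 library 2) and 12 were highest in mA1 library 2, among them Psma7 (30382 there and 21120.0 to 24036 elsewhere) and Psmb1 (24895 there). Of 9 genes of proteasome activators and assembly, 7 were above 0 (median 0.33, and 0.17 without control library 1 or without mA1 library 2). Psme1 and Psme2, which encode the interferon-inducible activator PA28, were low in control library 1 (8493 and 7492) against 12538.5 to 16829 and 11650 to 14304 in the other libraries. Psme4, another activator, was higher in every mA1 library (3159 to 3546) than in any control (1699 to 2335). Psme3, also an activator, was lower in every mA1 library (3729 to 4282) than in any control (4796 to 7121). The groups did not overlap for 4 of the 9 genes, against 19.2% of all genes. These were Psme3, Psme4, Psmg1 and Psmg2, with mA1 higher in all but Psme3, and they are named after their values were seen. Psme4 is called in the authors' deposited table (adjusted p = 0.0407) and was not called by limma (adjusted p = 0.257).

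Among 19 transcription factors and chromatin regulators of class I genes, 10 were above 0 and 9 below, with a median of 0.0570. Rela (5536 to 9661), Nfkb2 (2754 to 5815) and Irf2 (4489.6 to 5740.9) were the most abundant, and Rela and Nfkb2 were lowest in mA1 library 2. Irf1, picked out after its values were seen, was at 2270.3, 3130.2 and 3351 in control and 3018, 2540.4 and 2844 in the mA1 libraries. Of 12 interferon receptors, kinases and their inhibitors, 4 were above 0 and 8 below (median −0.20). The receptor chains Ifngr1 (10479.7 to 21685) and Ifngr2 (9499 to 12158) and the kinase Jak1 (10682 to 16602) all had their lowest value in mA1 library 2.

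Of 29 interferon-stimulated genes, 18 were above 0 and 11 below (median 0.28, and 0.13 without control library 1). Of these 15 were lowest in control library 1 and 11 were highest in mA1 library 2. The most abundant were Ifih1 (2111 to 3742), Bst2 (2701 to 4101) and Ifi35 (1815 to 2474), with no wide spread. In mA1 library 2, 4 of the 29 were lowest. Genes picked out after their values were seen show how far apart members of the list were there. Iigp1 (6200.3 against 305 to 1069 elsewhere), Tgtp1 (2456 against 75.1 to 568), Gbp4 (1226 against 0.988 to 111), Gbp2 (2320.1 against 305 to 998) and Igtp (2444 against 663 to 1346), which encode interferon-induced GTPases, were highest in it. Gbp3 (123 against 94.3 to 269.5) and Gbp7 (182 against 57.6 to 212), of the same family, were not. Irf7 (774 against 1406 to 2348), Irf8 (346 against 944 to 3506) and Usp18 (519 against 837 to 2204) were lowest there. Igtp was higher in every mA1 library (1137 to 2444) than in any control (663 to 895). Irf7 was lower in every mA1 library (774 to 1926) than in any control (2055 to 2348). The groups did not overlap for 7 of the 29 genes, against 19.2% of all genes.

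Markers of other cells and states moved with these genes in part. The 7 class II genes tested were all above 0 (median log2 fold change 1.25, and 0.22 without control library 1), and all 7 were lowest in control library 1, where Cd74 was at 41866 against 308178 to 487080 elsewhere. Of the 10 alveolar type 2 markers all were above 0 (median 1.07, and 0.0382 without control library 1). The median of the leukocyte markers, centred on each gene, was −0.00929 in control library 1 and −1.16 in mA1 library 2. The 13 leukocyte markers of 16 listed that were in the table summed to 30437 to 40311 in control and 32093 to 40949 in the mA1 libraries, mostly Cd14 (27949.6 to 37969). In mA1 library 2, 5 leukocyte markers were at 0, among them Csf1r, Adgre1 and Itgax, and Ptprc was at its lowest (80.8). In the other libraries 0 to 3 of the 13 markers were at 0, among them Adgre1 in control library 2 and Itgax in mA1 library 3. Cd14, Itgam and Cd79a were not lowest in mA1 library 2. Endothelial markers summed to 74.4 to 139 in control and 170.2 to 272 in the mA1 libraries. All 3 tested were above 0 (median 0.80), and Pecam1 was at 4.51 to 37.5 in control and 107 to 120.5 in the mA1 libraries (log2 fold change 2.102, SE 0.54, adjusted p = 0.257). Fibroblast markers summed to 104 to 408 and 309 to 461. Both tested were above 0 (median 0.61), and Pdgfrb was at 0 in all controls and in mA1 library 3. Their part in the values of the class I genes was not tested. Of the 6 tumour epithelial markers 4 were below 0 (median −0.54, and −0.32 without mA1 library 2). Krt8 (389732 to 512409 in control and 228383 to 307229 in the mA1 libraries) and Krt18 (438489 to 651279 and 285343 to 341902) were called lower in the authors' deposited table (adjusted p = 0.0131 and 0.0232) and not by limma (0.279 and 0.294). The part of the alveolar type 2 and class II difference of control library 1 in the values of the class I genes was not tested.

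**Figure D5:**
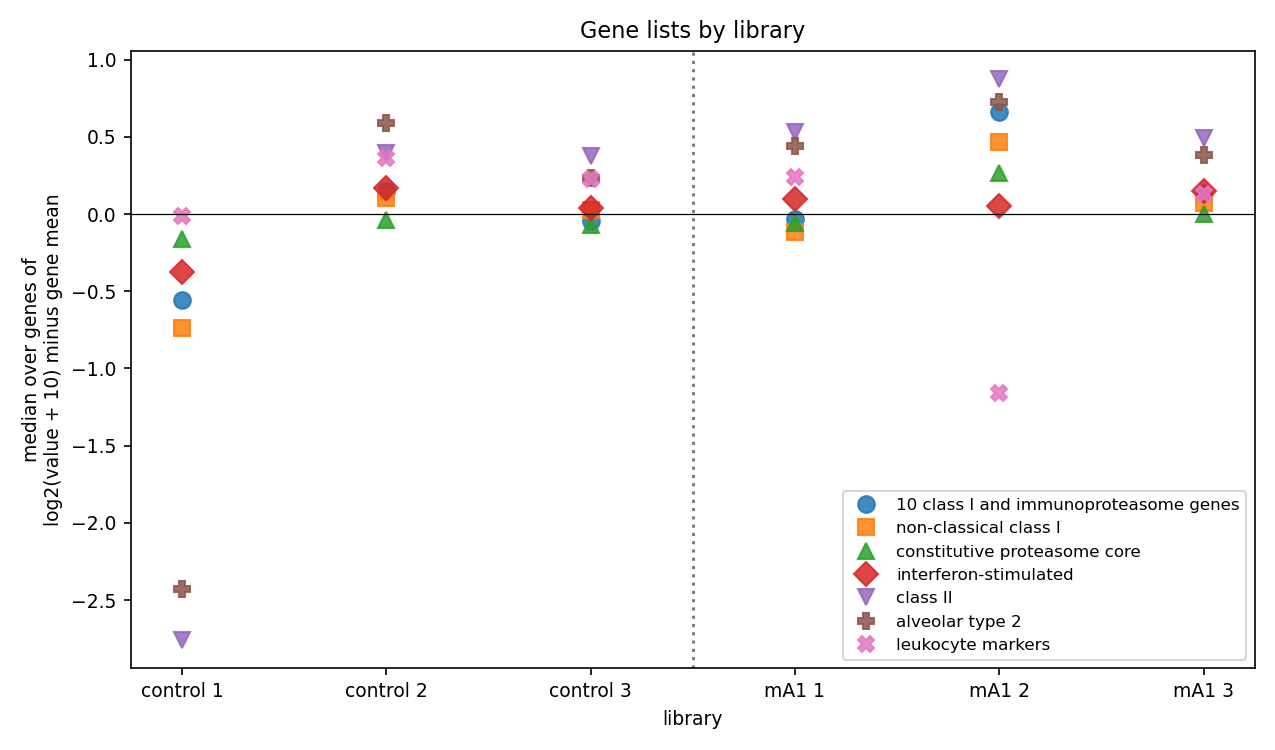
Median over each gene list of log2(value + 10) minus the mean of the gene (vertical axis) in each library, with the dotted line between control and mA1. Class II and alveolar type 2 genes are far down in control library 1 (−2.76 and −2.43) with the 10 class I and immunoproteasome genes at −0.56, and in mA1 library 2 the 10 genes are at 0.66 and the leukocyte markers at −1.16.

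The mean pattern of the 10 genes, centred on each gene on the log2(value + 10) scale, was −0.83, 0.0829 and 0.0237 in control and −0.0327, 0.72 and 0.0344 in the mA1 libraries. Genes near to it in exons were 9530082P21Rik (root mean square difference 0.0654 over the 6 libraries), Rab11fip2 (0.0877), Ankrd13a (0.0893) and Exosc7 (0.0946). The median over all other genes was 0.600, and a pattern with no change would be at 0.450. Of the 10 genes themselves H2-K1 was nearest (0.171), then Psmb10 (0.199) and Tap2 (0.214), and Nlrc5 was farthest (0.799).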

How the data were processed

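Polyadenylated RNA of sorted lung tumour cells was sequenced in 3 control and 3 mA1 libraries, prepared after DNase treatment with a low-input kit that does not mark strand, per the labels' protocols. The submitters' processing notes name mm10, TopHat2 2.1.1, HTSeq 1.99.2 and DESeq2 without roles. The annotation and strand setting of the counting are not given in the sources used here. The authors deposited a table of exonic and a table of intronic reads per gene, as signal values: each read count is divided by the size factor of its library, per the file headers and the values. All values (100%) were whole multiples of a step in each column (tolerance 0.05), and dividing by the step gave back the reads as a count. The step is close to 1 for exons of control library 1 (0.988) and of mA1 libraries 2 and 3 (1.01) and for introns of mA1 library 3 (0.987). Without the step 9.55% to 10.2% of values would be whole in every column. Also deposited by the authors are a log2 fold change, its standard error, a test score (the ratio of these, not used here) and p-values before and after adjustment, which are given only where named. Table columns carry the treatment and replicate number of the sample labels.

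The main test was limma 3.58.1 (R 4.3.3) with a mean-variance trend, run on log2(value + 10). Genes needed 10 or more normalised counts in 3 or more libraries, and p-values were adjusted by Benjamini-Hochberg over all genes tested, with a threshold of 0.05. A fold change on this scale understates the change of low genes. Exonic and intronic changes were compared by limma on the difference of log2 values within each library. Ratios of subunits were tested by an exact permutation test over libraries. Alternatives were other pseudocounts, no filter, TMM scaling, edgeR 4.0.16 and DESeq2 1.42.0 on recovered reads, a GC correction, a replicate block and leaving out libraries. Leaving out control library 1 with mA1 library 2 was added after the data were seen. The fits were tested on simulated data. Genes named from the wider lists are those past the threshold or, where fewer than 3 passed, the 3 with the highest mean value, and those named for their values are marked as such. Gene symbols matched the GENCODE M21 annotation for 17159 of 17842 exonic and 13276 of 13738 intronic genes. The 10 genes and all lists were chosen with earlier results of these data known. Malat1 and genes of the sex chromosomes and mitochondrial genome were not analysed here. Some genes that the naming rule or the lists hold are not reported here.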

Additional observations from a re-analysis of the deposited data

How the results depend on the processing

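With 3 animals a group, wide intervals limit what can be seen: for Psmb8 and Psmb9 they run from below 0 to 2.68 and 2.71 on the log2 scale. Introns of Tap1 and Psmb9 hold few reads, at most 31 and 60 a library, and those of Nlrc5 range from 1 to 202. The smallest adjusted p of any of the 10 genes was 0.339 over 17 exonic alternatives (Tap2 without control library 2), 0.434 over 13 intronic ones and 0.580 over 11 for the difference, so 0 genes passed 0.05 in any of these. Over all exonic genes 1 passed in limma, against 0 by edgeR under either scaling and with the replicate block, with or without the GC correction, and 462 by DESeq2. Over all intronic genes 0 passed in limma and 127 by DESeq2. The animals share only a number between groups (correlation of deviations 0.0187, 0.0659 and −0.10 for numbers 1 to 3). With the replicate block 0 of the 10 genes passed, and the median exonic log2 fold change was 0.30. Unadjusted limma p was then 0.0246 for Psmb8 and 0.0475 for Tap1. The GC correction raised Tap2 to 0.88, Psmb10 to 0.49, Tapbp to 0.36 and H2-D1 to 0.30, and lowered B2m. With both, unadjusted limma p was 0.0140 for Tap2, 0.0155 for Psmb8, 0.0184 for Tap1, 0.0279 for Psmb9 and 0.0456 for Psmb10 (adjusted 0.420 to 0.476). It was above 0.05 for the other genes. The share of all genes under 0.05 in these settings is not given here.

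Exonic Nlrc5 turned positive with a pseudocount of 50 (0.00495), with the GC correction with or without the block (0.00607), and by edgeR under either scaling and DESeq2 (0.17). Exonic B2m was −0.0791 with the GC correction, with or without the block. Intronic Psmb9 was 0.11 with a pseudocount of 1. Intronic H2-D1 was −0.000835 and Tap1 −0.0105 with a pseudocount of 50, −0.0215 and −0.11 by edgeR and −0.0254 and −0.10 by DESeq2. The causes were not tested.

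The following ranges cover leaving out each library in turn, and control library 1 with mA1 library 2 together. The exonic median ran from −0.0707, with those libraries both left out, to 0.46. Exonic log2 fold changes ran from −0.0891 to 0.54 for H2-K1, −0.0700 to 0.26 for H2-D1, −0.17 to 0.38 for B2m, −0.0137 to 1.2004 for Tap1, −0.0556 to 0.29 for Tapbp, −0.0817 to 1.61 for Psmb9, −0.0715 to 0.45 for Psmb10 and −0.63 to 0.53 for Nlrc5. Intronic ones ran from −0.46 to 0.34 for H2-K1, −0.24 to 0.23 for H2-D1, −0.44 to 0.49 for Tap1 and −0.89 to 0.43 for Psmb9. The difference between exonic and intronic changes ran from −0.00224 to 0.31 for H2-D1 and from −0.97 to 0.18 for Tapbp, and it kept its sign for the other genes measured in both. Intronic Nlrc5 ran from −3.004 to −0.77, and its difference between exons and introns from 1.04 to 2.45, below that of Psmb9 without control library 2 (1.54) or mA1 library 1 (1.62 against 1.55). The log2 ratio of Psmb10 to Psmb7 ran from −0.20, without control library 1, to 0.32. All genes past the threshold ran from 0 to 1 in exons and in introns.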
